A study of Mus musculus with 6 samples.

Results

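The clustered protocadherins are cell adhesion genes that sit in 3 adjoining clusters, named alpha, beta and gamma. They were taken from the deposited table by symbol alone, and 59 of its 24421 rows belong to them: 15 alpha, 22 beta and 22 gamma rows, the last made up of 12 gamma A, 7 gamma B and 3 gamma C genes. The table held 6 libraries of RNA from whole hearts of C57BL6/J mice aged 4 weeks, with no genetic change or treatment named for any group. RNA immunoprecipitation (RIP) recovers the RNA that comes down with an antibody from a lysate. The groups were Cnot3 RIP (2 libraries, antibody against Cnot3, a subunit of the CCR4-NOT complex that shortens poly(A) tails of mRNAs), IgG RIP (2 libraries, a control IgG antibody) and Input (2 libraries of RNA from the hearts, with no antibody). Whether the libraries of a group stem from different animals is not stated, so each p-value reflects only how these libraries spread, and that spread may be technical.

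Protocadherins of the clusters are cadherin-like membrane proteins that bind the same isoform on a neighbouring cell, and they are best known for giving neurons an identity by which their branches recognise one another. Each gene has its own promoter and its own large exon, which encodes the extracellular part. Alpha and gamma transcripts splice that exon to constant exons shared by their whole cluster, while beta genes have no constant exons. The promoter that a cell uses is chosen with the help of the DNA-binding protein CTCF, cohesin and DNA methylation, whereas the C-type genes at the ends of the alpha and gamma clusters are regulated differently from the rest.

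Library totals were 15713318 to 33479580 reads, of which 3407528 to 12500739 remained without the ribosomal RNA precursor Rn45s. Rn45s took 60.2% and 59.4% of the reads in IgG RIP, 53.1% and 51.1% in Cnot3 RIP, with 78.3% and 79.2% in the Input. Levels are given as scaled CPM, CPM (reads scaled to a common library total) with library sizes adjusted by TMM, and 1 to 3 reads of a gene in a library are near the floor of 0.0899 to 0.277 scaled CPM that a count of 0 allows. Floors and intervals of shares cover only counting error, because the reads carry no molecular identifiers and are not independent molecules. All 10 cardiomyocyte markers were present, with a summed level of 24049 to 43176 scaled CPM over the 6 libraries. Among 18 nerve and Schwann cell markers, 4 were at 0 reads in all libraries, Th, Chrna3 and Snap25 among them. The rest had reads, and 7 were high enough to be tested. The summed level of the list was 20.7 to 22.97 scaled CPM in IgG RIP, 22.4 to 28.2 in Cnot3 RIP and 28.9 to 32.4 in the Input. In heart lysate, fewer cells of a type and less RNA per cell cannot be told apart.

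The 3 clusters lie side by side on the plus strand of mouse chromosome 18 (GENCODE vM21 annotation of GRCm38, the mm10 build named in the submitters' processing notes). The 12 alpha rows with an annotated gene span 36930184 to 37187661, the beta genes 37264938 to 37524479 and the gamma genes 37661793 to 37841873. All 12 annotated alpha genes end within 10 bases of each other, and so do all 22 gamma genes, because of the constant exons. The exonic bases that no other clustered gene shares had a median of 2485 per alpha gene, 3714 per beta gene and 2629.5 per gamma gene. Reads on the constant exons could be assigned to several genes, split between them or dropped by the counting, which the sources used here do not describe. Levels of single alpha and gamma genes are therefore uncertain, and cluster sums are given beside them. A read counted for several genes enters the sum of its cluster once per gene. Sums, gamma shares and ratios to beta therefore depend on the counting too.

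Gamma rows held most of the clustered protocadherin reads as counted. Of the beta and gamma clusters, which could be tested, only the gamma sum was called different between groups in any comparison. The gamma sum stood at 752 scaled CPM in IgG RIP replicate 1 and 368 in replicate 2, at 164 and 138 in the Cnot3 RIP libraries, and at 68.7 and 57.9 in the Input libraries. These came from 13042, 8118, 4615, 4600, 744 and 1199 reads in the same order. The groups did not overlap, with IgG RIP highest and Input lowest. The share of gamma among all clustered protocadherin reads was 97.1% and 93.4% in IgG RIP, 89.1% and 90.8% in Cnot3 RIP, with 82.7% and 83.7% in the Input.

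The beta sum was far lower and spread less, at 21.7 and 25.7 scaled CPM in IgG RIP, 20.0 and 13.8 in Cnot3 RIP, with 14.2 and 11.3 in the Input, from 154 to 567 reads per library. Both IgG RIP libraries were above all others, while the lower Cnot3 RIP library lay between the Input libraries. The alpha cluster held 10 and 9 reads in IgG RIP, 3 and 7 in Cnot3 RIP, with 2 and 1 in the Input, 32 reads in all, and did not pass the filter on low values. The plot of summed levels shows the clusters with gamma split into its types.

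**Figure D1:**
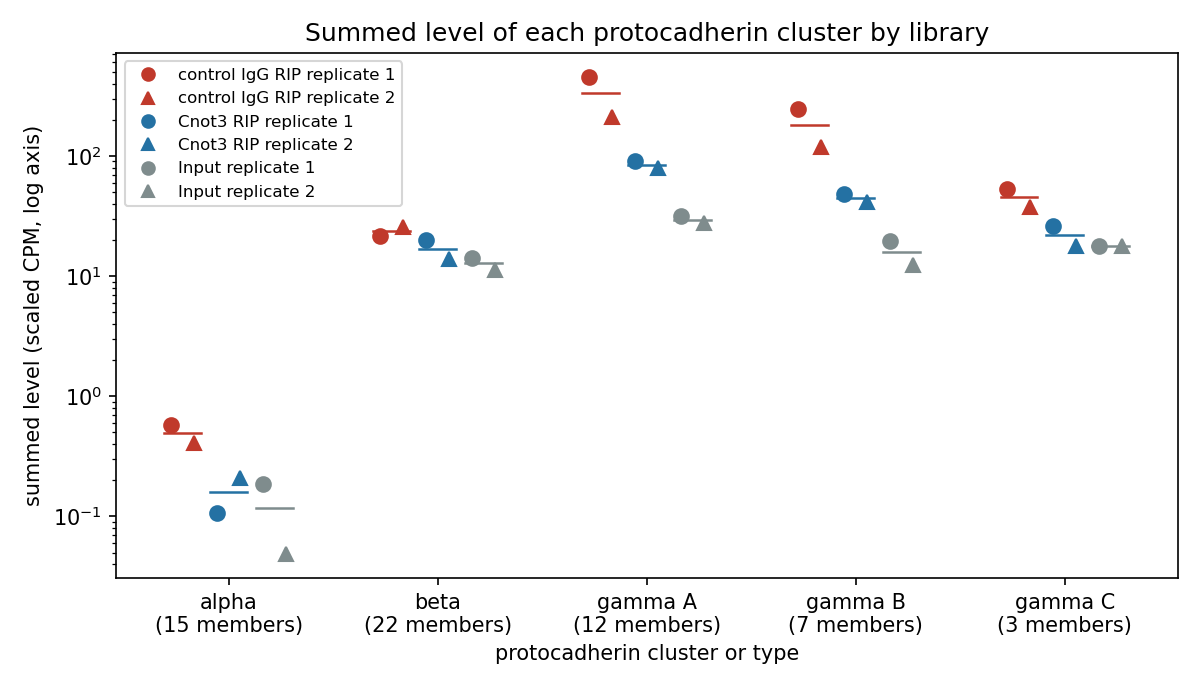
Summed level of the alpha and beta clusters and of the gamma A, B and C types in scaled CPM (log axis), with 1 point per library and a horizontal line at each group's mean. Gamma A and gamma B sums are highest in the IgG RIP libraries and lowest in the Input libraries, whereas beta sums lie between 11.3 and 25.7 and alpha sums stay below 1.

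Cnot3 RIP was set against IgG RIP to ask what came down with the Cnot3 antibody more than with the control. The gamma sum was lower in Cnot3 RIP, 151 ± 18.7 scaled CPM (SD, n = 2) against 560 ± 272 in IgG RIP. The limma log2 fold change was −1.80 (SE 0.33, 95% interval −2.55 to −1.06, adjusted p = 0.0371), or 0.287 of the control level. Among single genes, 13 of 22 gamma members were lower and 0 higher, against a background of 0.277% of 13010 tested genes called lower and 1.54% called higher. Their log2 fold changes ranged from −2.21 to −0.44 with a median of −1.89, beside a median of −0.00 over all genes. Values of the groups did not overlap for 21 of 22 members, the exception being Pcdhga1, where 21.8% of all genes had such a separation in this direction.

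The calls in this comparison were lost or became fewer without some single libraries and with no filter. Fewer of all tested genes were also called lower in each of the fits below than in the main fit. The gamma sum had an adjusted p of 0.269 without IgG RIP replicate 1 (log2 fold change −1.33) and 0.203 without Cnot3 RIP replicate 2, where limma called 0 gamma members in both cases (20 and 20 at an unadjusted p under 0.05). Without Input replicate 1 or 2, which are in neither group but enter the scaling and the estimate of the spread, the sum had adjusted p of 0.0665 and 0.0680, and 7 and 4 members were called. With no filter on low values the sum had an adjusted p of 0.0806 and limma called 0 members, at the same log2 fold change of −1.80. That fit called 1 of 18620 genes lower.

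Pcdhga9 and Pcdhga8, adhesion genes of the gamma A type, had some of the largest differences. Pcdhga8 stood at 53.6 and 22.9 scaled CPM in IgG RIP, 8.01 and 7.85 in Cnot3 RIP, with 1.39 and 1.40 in the Input. Its libraries fell into 3 separate levels, and the Cnot3 RIP and Input pairs were each nearly equal. The log2 fold change was −2.11 (SE 0.36, adjusted p = 0.0299) for Cnot3 RIP against IgG RIP. Pcdhga9 stood at 48.4 and 21.0 in IgG RIP, 7.12 and 6.33 in Cnot3 RIP, with 2.59 and 1.35 in the Input (log2 fold change −2.21, SE 0.40, adjusted p = 0.0350).

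Pcdhgb8, annotated as a polymorphic pseudogene, had the smallest p of the members in this comparison (log2 fold change −2.02, SE 0.32, adjusted p = 0.0260), with 33.5 and 18.9 scaled CPM in IgG RIP, 6.06 and 5.995 in Cnot3 RIP, with 3.51 and 2.22 in the Input. Pcdhga7 was at 44.1 and 24.6, 7.16 and 9.23, and 4.53 and 2.85 in the same order (−1.99, adjusted p = 0.0293). For both genes every IgG RIP library was above every other library.

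Cnot3 RIP was also set against Input, the RNA of the hearts taken with no antibody. The gamma sum was 2.38-fold higher in Cnot3 RIP, 151 ± 18.7 against 63.3 ± 7.65 scaled CPM (SD, n = 2), with a log2 fold change of 1.25 (95% interval 0.51 to 2.00). Its limma adjusted p was 0.05003, just outside the threshold of 0.05, so it was not called. With the median gamma member in place of the sum the log2 fold change was 1.52 with an adjusted p of 0.0281. Of the 22 members, 11 were higher and 0 lower, against backgrounds of 5.86% higher and 2.47% lower among all genes tested. The median log2 fold change was 1.36 (range 0.08 to 2.32, all genes 0.06). The groups did not overlap for 21 of 22 members, all but Pcdhgc3, beside 30.6% of all genes.

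Pcdhga8 had the largest difference here, with a log2 fold change of 2.32 (SE 0.36, adjusted p = 0.0116), or 4.98-fold. Pcdhgb5 was 3.96-fold higher, at 7.66 and 5.82 scaled CPM in Cnot3 RIP, with 1.85 and 1.21 in the Input (adjusted p = 0.0168), and Pcdhga6 was 3.50-fold higher, at 7.73 and 6.65 against 2.12 and 1.64 (adjusted p = 0.0168). In all 3 genes each Cnot3 RIP library was above both Input libraries. The number of members called was 3 without Cnot3 RIP replicate 1, 1 without Cnot3 RIP replicate 2 and 0 without either Input library. It was 22 with the deposited CPM as they stand, where 59.6% of all genes were called higher, a scaling under which the median of all genes moved to a log2 fold change of 1.02 for Cnot3 RIP against Input, 0.70 for IgG RIP against Input and 0.30 between the RIPs. Relative to that median the gamma sum was at 1.31, 3.12 and −1.78.

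The largest differences were between IgG RIP and Input, the comparison that shows what came down with the control antibody. The gamma sum was 8.32-fold higher in IgG RIP, with a log2 fold change of 3.06 (95% interval 2.31 to 3.80, limma adjusted p = 0.00613). Of the 22 gamma members, 20 were higher and 0 lower, where 2.58% of all genes were called higher and 1.49% lower. The median log2 fold change was 3.18 (range 0.65 to 4.43, all genes 0.01), and the groups were separate in all 22 members, beside 29.7% of all genes. Pcdhga1 and Pcdhgc3 did not pass, with adjusted p of 0.0549 and 0.132. The 3 comparisons share their libraries with one another in pairs, so their calls are not independent.

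Pcdhga8 was 21.5-fold higher in IgG RIP than in the Input (log2 fold change 4.43, SE 0.36, adjusted p = 0.00299). Pcdhgb5 was at 39.1 and 18.8 scaled CPM in IgG RIP (15.7-fold, adjusted p = 0.00359), and Pcdhga6 at 38.9 and 19.7 (13.2-fold, adjusted p = 0.00359). Pcdhga10 was at 52.0 and 22.9 against 2.22 and 2.99 (12.3-fold), but all 2613 of its own exonic bases also lie under exons of Gm26672 on the other strand. Without strand information in the counts, reads of the 2 genes cannot be told apart, and 8 gamma members have such an overlap over some of their bases. The sum had an adjusted p of 0.0598 without IgG RIP replicate 1, with 12 members called, and of 0.0872 without Input replicate 2, with 10 called.

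**Figure D2:**
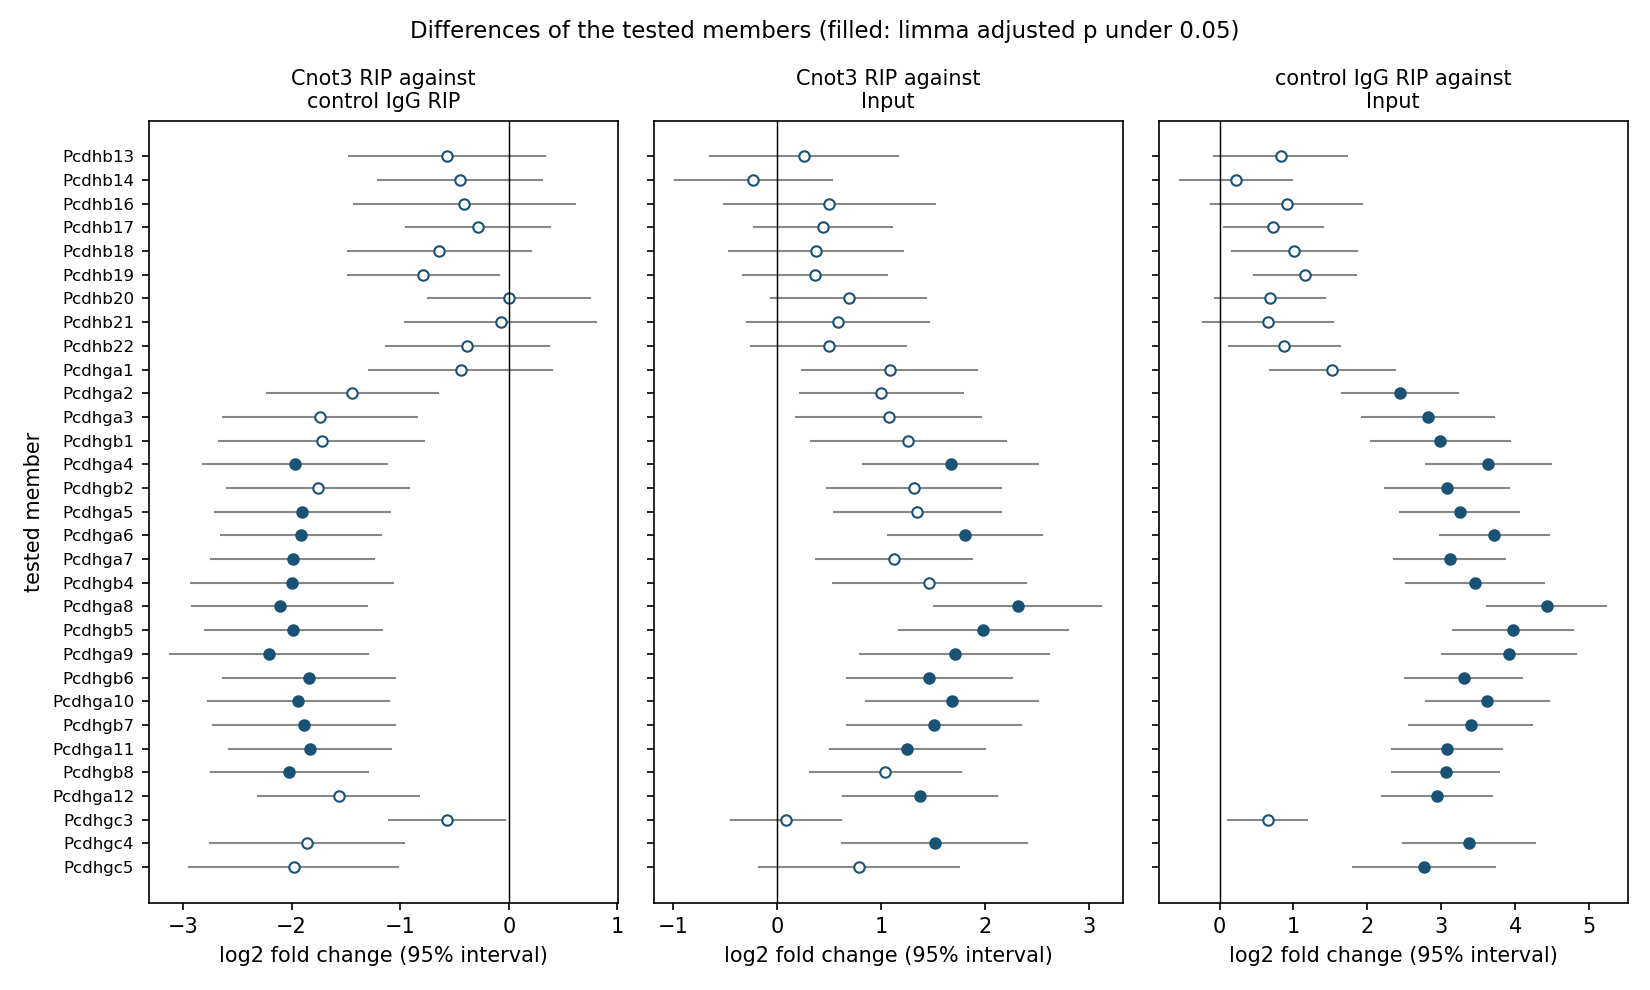
Log2 fold change of each of the 31 tested members (9 beta, 22 gamma) with its 95% interval, in 1 panel per comparison, with filled points where the limma adjusted p is under 0.05. Filled points are gamma members in all 3 panels, 13 to the left of 0 for Cnot3 RIP against IgG RIP, 11 to the right for Cnot3 RIP against Input and 20 to the right for IgG RIP against Input.

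The gamma A and gamma B types differed between groups by similar amounts, and gamma C by less. Gamma A summed to 455 and 211 scaled CPM in IgG RIP, 90.01 and 78.9 in Cnot3 RIP, with 31.5 and 27.6 in the Input. Gamma B summed to 244 and 119, 48.2 and 41.1, and 19.6 and 12.3. Gamma C summed to 52.9 and 38.0, 26.2 and 17.9, and 17.6 and 17.96, so that its lower Cnot3 RIP library lay between the Input libraries. The sums by type were taken after the values had been seen.

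Against IgG RIP, limma gave log2 fold changes of −1.88 (adjusted p = 0.0359) for gamma A, −1.93 (0.0361) for gamma B and −1.04 (0.0878) for gamma C. Against Input, Cnot3 RIP was 2.85-fold higher for gamma A (adjusted p = 0.0308) and 2.84-fold for gamma B (0.0359), while gamma C had a log2 fold change of 0.28 (95% interval −0.31 to 0.87, adjusted p = 0.536). Control IgG RIP was above Input 10.4-fold for gamma A, 10.8-fold for gamma B and 2.502-fold for gamma C (adjusted p of 0.00576, 0.00576 and 0.0346). Without IgG RIP replicate 1 the calls against IgG RIP were lost, with adjusted p of 0.227 for gamma A and 0.330 for gamma B, as they were with no filter on low values (0.0765 for both) and without Cnot3 RIP replicate 2 (0.179 and 0.189), Input replicate 1 (0.0584 and 0.0504) or Input replicate 2 (0.0611 and 0.0512). Gamma C passed against IgG RIP without Cnot3 RIP replicate 1 (log2 fold change −1.32, adjusted p = 0.0182), and for Cnot3 RIP against Input with scaling by library size only (1.34, adjusted p = 0.00292). The calls of both types for Cnot3 RIP against Input were lost with no filter (0.0578 and 0.0646) and without either Input library or Cnot3 RIP replicate 2, and that of gamma B also without Cnot3 RIP replicate 1 (0.0598). For IgG RIP against Input, the gamma A call was lost without Input replicate 2 (0.0642), that of gamma B also without IgG RIP replicate 1 (0.0543), and that of gamma C without any 1 of the IgG RIP and Input libraries (0.0957 to 0.253).

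Within gamma C the genes were unlike each other. Pcdhgc3 stood at 25.8 and 24.6 scaled CPM in IgG RIP, 20.1 and 14.2 in Cnot3 RIP, with 15.2 and 16.7 in the Input. Its IgG RIP libraries were nearly equal and above the rest, and its Cnot3 RIP libraries lay on either side of Input. Log2 fold changes were −0.57 (SE 0.24, adjusted p = 0.256) against IgG RIP, 0.08 (95% interval −0.45 to 0.62, adjusted p = 0.855) for Cnot3 RIP against Input and 0.65 (adjusted p = 0.132) for IgG RIP against Input. On the other strand, exons of BC037039 cover 1559 of the 3380 bases that Pcdhgc3 does not share.

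Pcdhgc4 and Pcdhgc5 were nearer to gamma A and B in their differences. Pcdhgc4 was at 15.9 and 8.20, 3.78 and 2.34, and 1.201 and 0.628 scaled CPM in IgG RIP, Cnot3 RIP and Input, and was higher in Cnot3 RIP than in the Input (2.86-fold, adjusted p = 0.0484) and in IgG RIP than in the Input (10.4-fold, adjusted p = 0.00468), with an adjusted p of 0.0530 between the RIPs. Pcdhgc5 was at 11.2 and 5.21, 2.35 and 1.29, and 1.201 and 0.676, and was called in 1 comparison, IgG RIP against Input (6.82-fold, adjusted p = 0.0154). Its lowest value in each group came from 115, 43 and 14 reads. The 3 groups did not overlap in either gene.

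Pcdhgc3 therefore took a different share of the gamma reads in each group. The share was 3.44% (exact Clopper-Pearson 95% interval 3.13 to 3.76) and 6.68% (6.14 to 7.24) in IgG RIP. It was 12.2% (11.3 to 13.2) and 10.3% (9.46 to 11.2) in Cnot3 RIP, and 22.2% (19.2 to 25.3) and 28.8% (26.2 to 31.4) in the Input. In Input and Cnot3 RIP it was the gene with the most reads of the cluster, and in IgG RIP that was Pcdhga8 in replicate 1 and Pcdhga7 in replicate 2. The ratio of gamma A and B reads to Pcdhgc3 reads was 27.1 and 13.4 in IgG RIP, 6.89 and 8.43 in Cnot3 RIP, with 3.35 and 2.40 in the Input. This ratio does not depend on the scaling of a library, and was chosen after the values had been seen. Groups did not overlap, and the exact two-sided permutation p was 0.333 for each pair of groups, the smallest that 2 libraries against 2 can give.

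Pcdhga1, the gene that opens the gamma cluster, was at 8.71 and 3.62 scaled CPM in IgG RIP, 3.81 and 4.38 in Cnot3 RIP, with 1.75 and 1.83 in the Input. Its RIP groups overlapped, and the log2 fold changes were −0.44 (SE 0.37, adjusted p = 0.636) between the RIPs and 1.08 (adjusted p = 0.102) and 1.53 (adjusted p = 0.0549) for Cnot3 RIP and IgG RIP against Input. Apart from Pcdhga1, the 18 other gamma A and B genes had log2 fold changes of −2.21 to −1.44 between the RIPs, 1.004 to 2.32 for Cnot3 RIP against Input and 2.45 to 4.43 for IgG RIP against Input. Their group means were 16.9 to 38.2 scaled CPM in IgG RIP, 4.47 to 8.91 in Cnot3 RIP and 1.39 to 3.69 in the Input. These ranges of means did not overlap between the groups, as the plot of gamma members by position shows.

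**Figure D3:**
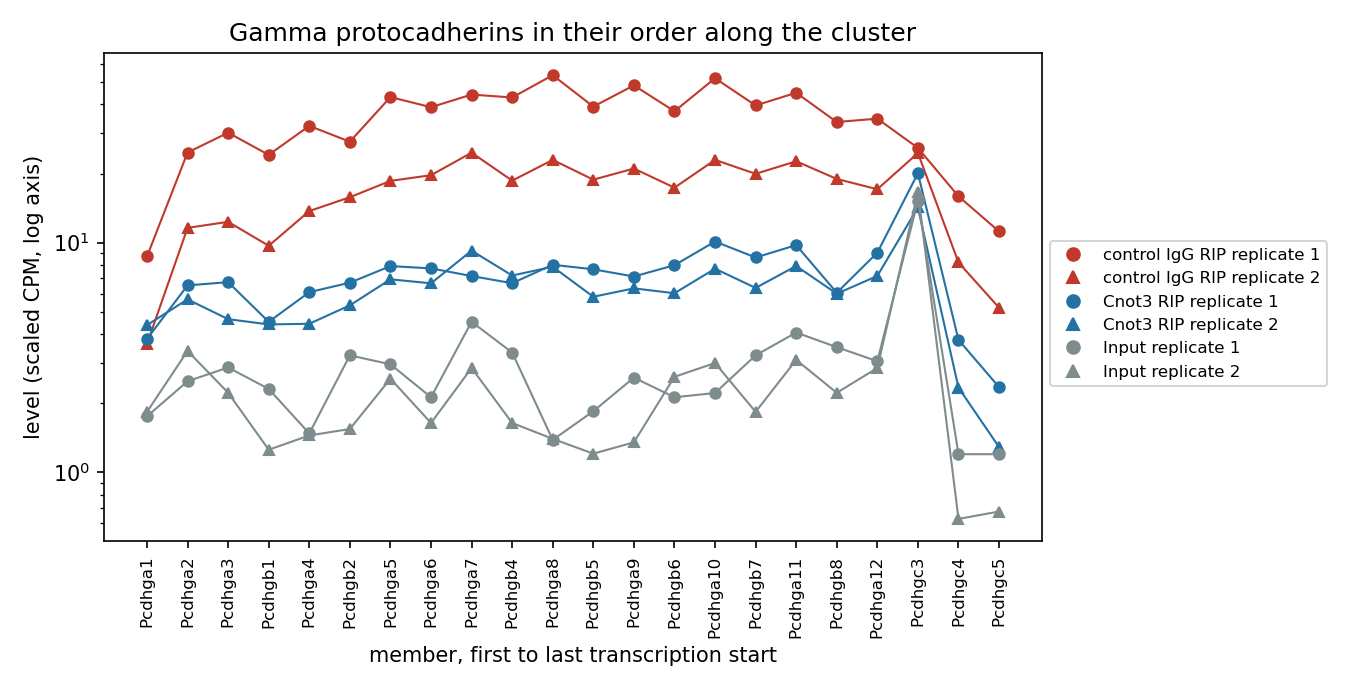
Level of each of the 22 gamma members in scaled CPM (log axis), in their order along the cluster, with 1 line per library. The lines of the 3 groups run apart along most of the cluster, with Input at 1.39 to 3.69 in the means of the 18 gamma A and B genes after Pcdhga1, and come together at Pcdhgc3, where all libraries lie between 14.2 and 25.8.

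Per kilobase of unshared exonic sequence, the order of the genes differed between the groups. In IgG RIP the gamma members ranged from 1.49 scaled CPM per kilobase (Pcdhgc5) to 15.3 (Pcdhga8), with a median of 9.28. In Cnot3 RIP the range was 0.330 (Pcdhgc5) to 5.07 (Pcdhgc3), with a median of 2.39, and in the Input 0.170 (Pcdhgc5) to 4.72 (Pcdhgc3), with a median of 0.893. Pcdhga10 and Pcdhga4 were next to Pcdhga8 in IgG RIP, at 14.3 and 14.6 per kilobase. Pcdhga4 has the fewest unshared bases of the gamma genes, 1570 of 4727. Its mean level in IgG RIP, 22.98 scaled CPM, was below the gamma median of 26.8. Pcdhga1 was at 1.90 per kilobase in IgG RIP, below all 18 of the other gamma A and B genes, which began at 5.69. Since reads on constant exons add to every gene or to none in a way that is not known here, these levels per length describe the table only.

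A bound on the constant exons can be given under 1 reading of the counting. If each read there had been counted for all 22 members, no member could hold fewer reads than that shared amount. The member with the fewest reads held 13 to 151 reads per library, and 22 times this number would be 20.6% to 38.4% of the gamma reads. Under other ways of counting there is no such bound.

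The IgG RIP libraries differed from each other across the gamma cluster. Replicate 1 was above replicate 2 in 22 of 22 members, by ratios of 1.05 (Pcdhgc3) to 2.49 (Pcdhgb1) with a median of 2.14. The median log2 difference of all tested genes between these libraries was −0.01. In Cnot3 RIP replicate 1 was the higher in 19 of 22 members (median ratio 1.24) and in the Input in 16 of 22 (median ratio 1.30). Control IgG RIP replicate 2, the lower library, was still at 368 scaled CPM for the gamma sum, above every Cnot3 RIP and Input library.

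Of the beta genes, which encode whole proteins in single exons, 21 of 22 had reads and 9 passed the filter on low values (Pcdhb13, Pcdhb14 and Pcdhb16 to Pcdhb22). Pcdhb13 had 11 and 16 reads in IgG RIP, 13 and 10 in Cnot3 RIP, with 4 and 4 in the Input. It would not have passed without its IgG RIP libraries, its highest group, so its place in the counts of groups without overlap below adds no support. Limma called 0 of the 9 in any comparison, as did edgeR's quasi-likelihood test. At an unadjusted limma p under 0.05 there were 1 against IgG RIP (Pcdhb19, lower), 0 for Cnot3 RIP against Input and 4 for IgG RIP against Input (Pcdhb17, Pcdhb18, Pcdhb19 and Pcdhb22, higher). The median log2 fold changes were −0.41 (range −0.79 to 0.00), 0.44 and 0.83. Groups did not overlap for 6 of 9 in the first of these (lower, beside 21.8% of all genes), 3 of 9 in the second (higher, 30.6%) and 7 of 9 in the third (higher, 29.7%).

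The beta sum had a log2 fold change of −0.50 between the RIPs (SE 0.26, 95% interval −1.08 to 0.08, adjusted p = 0.370). It was 0.39 (−0.19 to 0.97, adjusted p = 0.368) for Cnot3 RIP against Input, and 0.89 (0.31 to 1.47, adjusted p = 0.0835) for IgG RIP against Input. Group means were 23.7 ± 2.79, 16.9 ± 4.38 and 12.7 ± 2.102 scaled CPM (SD, n = 2) in IgG RIP, Cnot3 RIP and Input. With the deposited CPM as they stand, 7 of 9 beta genes were called higher in Cnot3 RIP and 6 of 9 in IgG RIP than in the Input, beside 59.6% and 33.7% of all genes, at the shifted medians of all genes given above. Without Cnot3 RIP replicate 1 or 2, which are in neither group, the sum passed for IgG RIP against Input (adjusted p of 0.0455 and 0.0462).

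Pcdhb19 had the lowest p among beta genes in 2 of the 3 comparisons. It was at 4.21 and 3.72 scaled CPM in IgG RIP, 2.42 and 1.98 in Cnot3 RIP, with 2.12 and 1.26 in the Input. Control IgG RIP was the highest group and the other groups overlapped, with log2 fold changes of −0.79 (SE 0.31, adjusted p = 0.227) between the RIPs and 1.15 (SE 0.31, adjusted p = 0.0703) for IgG RIP against Input. Pcdhb20 was level between the RIPs, at 2.02 and 1.68 against 2.35 and 1.44 (log2 fold change 0.00, 95% interval −0.74 to 0.75), with 1.201 and 0.917 in the Input.

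Pcdhb16 was at 2.60 and 4.30 in IgG RIP, 3.10 and 1.95 in Cnot3 RIP, with 2.77 and 0.966 in the Input, so that all groups overlapped. Pcdhb17 was at 2.94 and 3.35, 2.89 and 2.22, and 1.48 and 2.17, with its groups in the order IgG RIP, Cnot3 RIP, Input and no overlap. Pcdhb14 was at 1.61 and 1.95, 1.57 and 0.959, and 1.75 and 1.26. Pcdhb14 was the 1 tested beta gene with a log2 fold change below 0 for Cnot3 RIP against Input (−0.23, adjusted p = 0.709).

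Most beta reads came from the end of the cluster that faces gamma. Pcdhb14 to Pcdhb22 held 83.3% and 83.2% of the beta reads in IgG RIP, 85.8% and 84.4% in Cnot3 RIP, with 85.1% and 81.5% in the Input. The lowest and highest bounds of the exact 95% intervals were 76.0% and 90.3%, both in the Input. Per kilobase the genes Pcdhb1 to Pcdhb13 had means of 0 to 0.183 scaled CPM in IgG RIP, and Pcdhb14 to Pcdhb22 of 0.179 to 0.675. The highest per kilobase in each group was Pcdhb17, at 0.675, 0.548 and 0.392 in IgG RIP, Cnot3 RIP and Input, and Pcdhb1 had no reads. Across the 22 genes, Spearman's rho between order along the cluster and mean level per kilobase was 0.86 in IgG RIP, 0.84 in Cnot3 RIP and 0.77 in the Input, a description over genes that share libraries and are not replicates. In gamma the same values were −0.09, 0.02 and −0.06. The division at Pcdhb14 was made after the values had been seen.

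**Figure D4:**
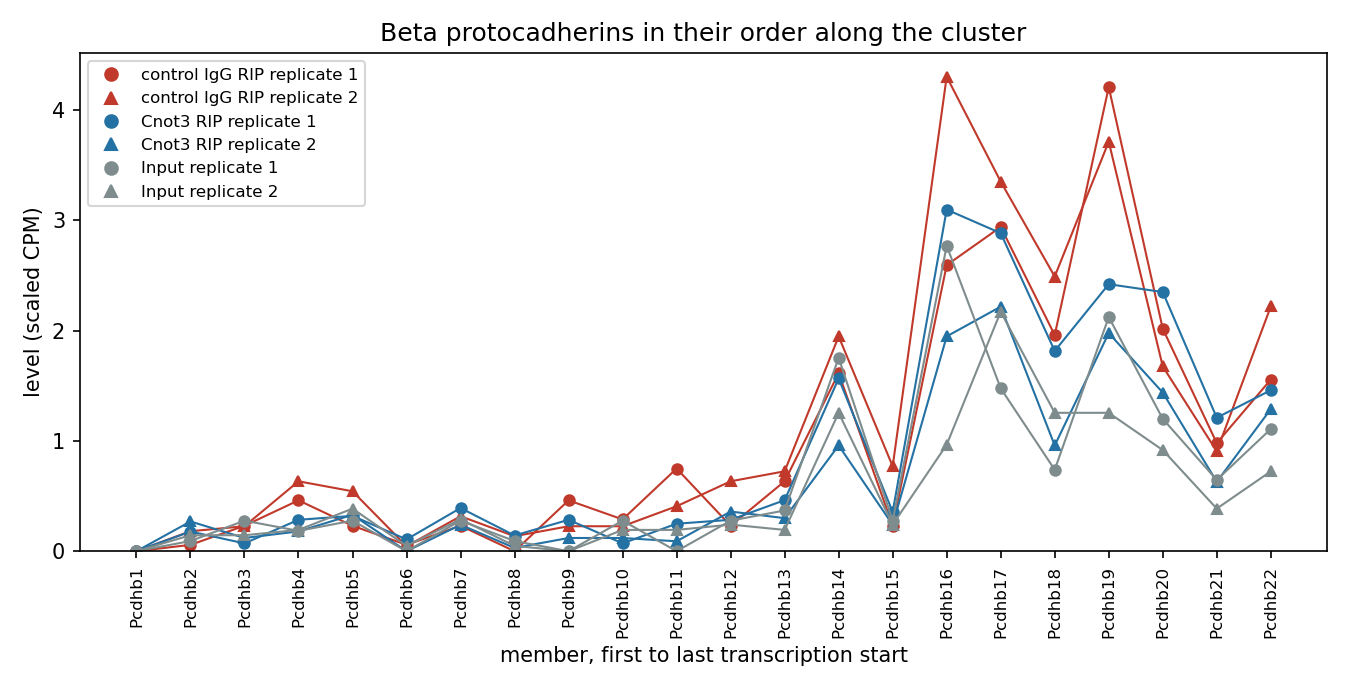
Level of each of the 22 beta members in scaled CPM (linear axis from 0), in their order along the cluster, with 1 line per library. Levels are at most 0.750 up to Pcdhb13 and reach 4.30 (Pcdhb16) beyond it, and the lines of the 3 groups cross or lie close together.

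Gamma therefore differed from beta within the same libraries. The ratio of gamma to beta reads was 34.6 and 14.3 in IgG RIP, 8.21 and 9.98 in Cnot3 RIP, with 4.83 and 5.15 in the Input. The 3 groups were separate, with IgG RIP replicate 1 standing well above its replicate. The log2 difference was −1.30 between the RIPs, 0.86 for Cnot3 RIP against Input and 2.16 for IgG RIP against Input, each with an exact two-sided permutation p of 0.333, the smallest this design allows. Without IgG RIP replicate 1 the differences that involve that group were −0.66 and 1.52. The ratio of gamma A to gamma B reads had a narrower spread, 1.61 to 2.24 over the 6 libraries.

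**Figure D5:**
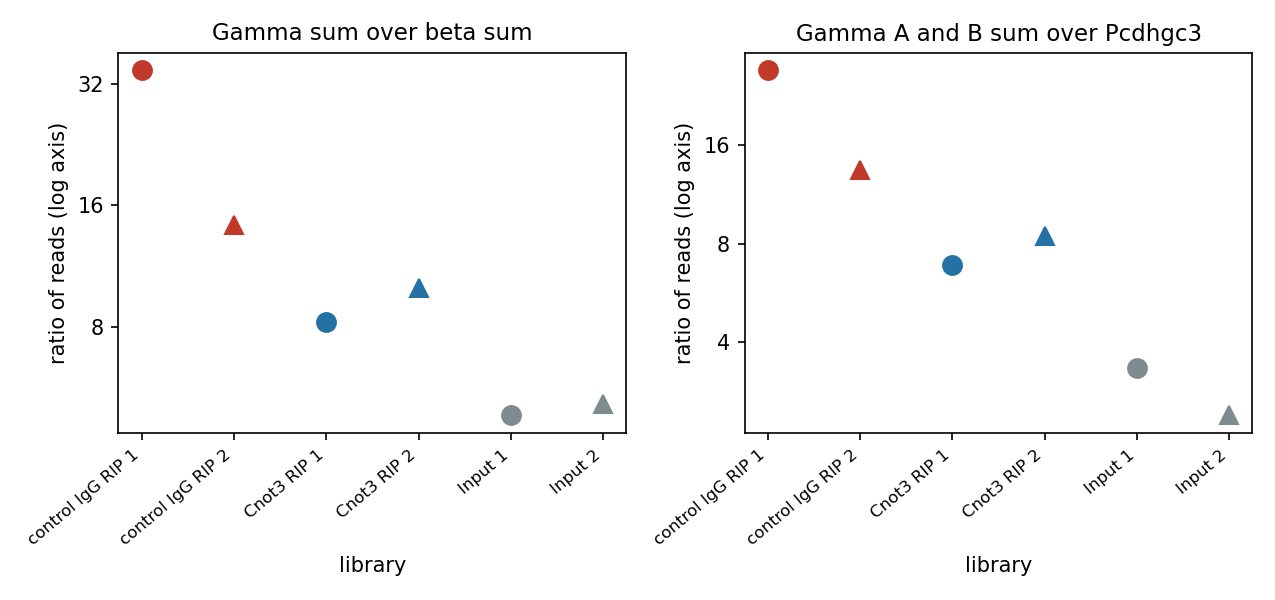
Ratio of gamma to beta reads and of gamma A and B to Pcdhgc3 reads in each of the 6 libraries (log axis). Both ratios are highest in IgG RIP (34.6 and 14.3 for gamma to beta) and lowest in the Input (4.83 and 5.15), with Cnot3 RIP between them.

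Alpha transcripts were close to absent from the table. Of the 15 rows, 7 had 0 reads in all libraries (Pcdha3, Pcdha4, Pcdha6, Pcdha7, Pcdha7-g, Pcdha12 and the C-type gene Pcdhac1), which allows up to 0.0899 to 0.277 scaled CPM depending on the library. The other C-type gene, Pcdhac2, had the most reads, 0 and 3 in IgG RIP, 2 and 6 in Cnot3 RIP and 0 in both Input libraries. Pcdha8 followed with 4 and 1, 0 and 0, and 2 and 0 reads, and Pcdha5 had 3 reads in IgG RIP replicate 1 and 1 in Input replicate 2. With 1 to 10 reads in a library for the whole cluster, the alpha sum did not pass the filter and was not tested. It was 0.577 and 0.408 scaled CPM in IgG RIP, 0.107 and 0.210 in Cnot3 RIP, with 0.185 and 0.0483 in the Input. Alpha to beta read ratios were 0.0265 and 0.0159, 0.00534 and 0.0152, and 0.0130 and 0.00429 in the same order. Their exact two-sided permutation p was 0.333 for IgG RIP against either other group. Gamma to alpha ratios overlapped between all groups.

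Relatives outside the clusters were compared in lists. Of 14 tested non-clustered protocadherins and large cadherins, 1 was higher and 1 lower in Cnot3 RIP than in IgG RIP, beside 1.54% and 0.277% of all genes. Against Input, 1 was higher in Cnot3 RIP and 2 in IgG RIP, beside 5.86% and 2.58% of all genes. Pcdh18, a protocadherin with its own locus, went the opposite way to gamma, at 5.07 and 9.15 scaled CPM in IgG RIP, 26.8 and 29.3 in Cnot3 RIP, with 7.39 and 5.46 in the Input (log2 fold change 2.00, adjusted p = 0.0240 between the RIPs; 2.099, adjusted p = 0.00972 against Input). Celsr3, an atypical cadherin of the planar polarity group, was at 11.4 and 10.6, 5.02 and 3.15, and 2.49 and 2.90. Its log2 fold changes were −1.40 between the RIPs (adjusted p = 0.0433) and 1.93 for IgG RIP against Input (adjusted p = 0.0124). Pcdh7, abundant at 111 to 278 scaled CPM, was higher in IgG RIP than in the Input (1.09, adjusted p = 0.0441). Between the RIPs the Pcdh18 call was lost without IgG RIP replicate 1 (adjusted p = 0.233) or Cnot3 RIP replicate 2 (0.105), and the Celsr3 call without any library but Cnot3 RIP replicate 1 (0.0664 to 0.398). The call of Pcdh18 against Input was lost without either Input library (0.0558 and 0.120), and those of Celsr3 and Pcdh7 for IgG RIP against Input without any 1 of those 4 libraries (0.0722 to 0.279). The Pcdh7 call was also lost with edgeR's quasi-likelihood test (0.0557).

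Of the other synaptic adhesion genes, 1 passed the test in all 3 comparisons. Lrrtm3, a leucine-rich repeat protein of synapses, was at 47.0 and 26.8 scaled CPM in IgG RIP, 10.5 and 7.88 in Cnot3 RIP, with 2.49 and 2.27 in the Input, with a log2 fold change of −1.93 between the RIPs (adjusted p = 0.0257) and 3.77 for IgG RIP against Input (0.00299). It was the only 1 of 23 tested to pass between the RIPs (lower, beside 0.277% of all genes), and the only 1 for Cnot3 RIP against Input (higher, beside 5.86%). For IgG RIP against Input, 4 of 23 were higher, beside 2.58% of all genes. Besides Lrrtm3 these were Lrrtm2 (3.63, limma adjusted p = 0.00597), Flrt1 (2.87, 0.0145) and Flrt3 (2.07, 0.0466). The list medians were −0.05, 0.36 and 0.28 in the 3 comparisons. Without IgG RIP replicate 1 or Cnot3 RIP replicate 2 the Lrrtm3 call between the RIPs was lost (adjusted p of 0.271 and 0.117), and so was its call for Cnot3 RIP against Input without either Input library (0.0806 and 0.144). The calls of Lrrtm2, Flrt1 and Flrt3 were lost without IgG RIP replicate 1 (0.0820 to 0.278) or Input replicate 2 (0.0738 to 0.231), that of Lrrtm2 also without IgG RIP replicate 2 (0.0509) and that of Flrt3 without Input replicate 1 (0.178) or with edgeR's quasi-likelihood test (0.0527).

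Nuclear long noncoding RNAs had a median log2 fold change of −1.13 between the RIPs over 12 tested genes, of which limma called 0, as did edgeR's quasi-likelihood test (6 lower and 1 higher at an unadjusted p under 0.05). For Cnot3 RIP against Input limma called 0 of 12, with a median of 0.38. The summed level of the list did not follow the order of gamma. It was 7749 to 9804 scaled CPM in IgG RIP, 2009 to 5363 in Cnot3 RIP and 4843 to 6823 in the Input. For IgG RIP against Input 3 of 12 were higher, beside 2.58% of all genes. These were Kcnq1ot1 (log2 fold change 3.41, limma adjusted p = 0.0128), Airn (3.49, 0.00791) and Xist (2.91, 0.0404), each a long RNA that acts in silencing at its own chromosome. Kcnq1ot1 was at 571 and 452 scaled CPM in IgG RIP, 191 and 81.2 in Cnot3 RIP, with 79.3 and 28.3 in the Input, the same order of groups as gamma, with no overlap between any of them. The calls of these 3 genes were lost without IgG RIP replicate 1 (adjusted p of 0.133 to 0.229) and without Input replicate 2 (0.0624 to 0.242), and those of Kcnq1ot1 and Xist also without IgG RIP replicate 2 (0.0619 and 0.140). That of Xist was also lost with edgeR's quasi-likelihood test (0.0583) and with no filter on low values (limma adjusted p = 0.0651). Its log2 fold change was 1.96 with a pseudocount of 1. The part of these noncoding RNAs in the gamma values was not tested.

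Classical cadherins and catenins, the adhesion genes of the intercalated disc among them, had 0 of 14 tested members called between the RIPs or for Cnot3 RIP against Input by limma or edgeR's quasi-likelihood test (2 and 2 at an unadjusted limma p under 0.05). Ctnna3, alpha-T-catenin, was higher in IgG RIP than in the Input (log2 fold change 1.21, adjusted p = 0.0288). Among 19 regulators of protocadherin promoter choice, Dnmt3a, a DNA methyltransferase, was higher in Cnot3 RIP than in the Input (1.16, adjusted p = 0.0320), and Ctcf was at 15.4 to 21.5 scaled CPM in all 6 libraries. Among 24 signalling partners, Prkca, a protein kinase C, was higher in Cnot3 RIP than in the Input (1.27, adjusted p = 0.0276). Brk1, of the WAVE complex that acts on actin, was lower in both RIPs than in the Input (−0.96 and −1.07, adjusted p of 0.0364 and 0.0394), but at 0.10 and −0.32 (0.781 and 0.435) with scaling by library size only. All of these calls were lost in 1 or more fits without a library. Of all genes, 5.86% were called higher and 2.47% lower in Cnot3 RIP than in the Input, and 2.58% and 1.49% in IgG RIP.

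The genes that flank the clusters had no call in the directions seen for gamma. Of 19 tested neighbours limma called 0 between the RIPs and 0 for IgG RIP against Input, as did edgeR's quasi-likelihood test (2 higher and 2 lower at an unadjusted limma p under 0.05, in this order). For Cnot3 RIP against Input, 2 of 19 were lower, beside 2.47% of all genes. Zmat2 and Ndufa2 were lower in Cnot3 RIP than in the Input (log2 fold changes −1.40 and −1.41, adjusted p of 0.0156 and 0.0203), which was lost without Cnot3 RIP replicate 2 or either Input library (0.0705 to 0.170) and with scaling by library size only (−0.36 and −0.34). Taf7, a transcription factor subunit gene between beta and gamma, was at 3.69 and 2.99 scaled CPM in IgG RIP, 4.52 and 8.12 in Cnot3 RIP, with 5.36 and 5.07 in the Input (0.82 between the RIPs, adjusted p = 0.204). Diap1, a formin gene beyond the gamma end, was at 18.97 and 15.8, 16.6 and 16.7, and 12.6 and 18.3 (−0.05, adjusted p = 0.953). In the marker lists of cardiomyocytes, fibroblasts, endothelium, mural cells, nerve and leukocytes, limma called 0 of 53 tested genes between the RIPs or between IgG RIP and Input, as did edgeR's quasi-likelihood test. At an unadjusted limma p under 0.05 there were 1 higher and 1 lower between the RIPs, and 3 higher and 10 lower in IgG RIP than in the Input. Myl2, a myosin light chain of cardiomyocytes, and Lyz2, a lysozyme of macrophages, were lower in Cnot3 RIP than in the Input (log2 fold changes −1.28 and −0.96, limma adjusted p of 0.0322 and 0.0464). They were 2 of 53 markers, beside the 2.47% of all genes. Both calls were lost without Cnot3 RIP replicate 2, without either Input library or with scaling by library size only.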

How the data were processed

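The authors deposited CPM, reads scaled to a common library total with Rn45s included, for each gene symbol in 6 libraries. The submitters' processing notes name CASAVA 1.8, FastQC, Bowtie2 2.2.5, TopHat2 2.1.0, edgeR and mm10, while read counter, annotation and strand setting are not named by the sources used here. Low CPM values gave the worth of 1 read per library, with which 100% of values came out whole (tolerance 0.01 read). These reads gave TMM factors (edgeR 4.0.16). In R 4.3.3, limma 3.58.1 with a trended empirical Bayes prior was run on log2(scaled CPM + 0.25) over all 6 libraries with 3 group means (residual degrees of freedom 3, prior 6.24). Fold changes are on that scale and understate low genes. filterByExpr at a minimum count of 10 (0.538 CPM) kept 13010 of 24421 genes, 31 of them members. P-values were adjusted by Benjamini-Hochberg over all genes tested, and a call is an adjusted p under 0.05. Cluster sums entered the same fit in place of their members. The script was tested on simulated data.

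Whether replicate numbers pair libraries across groups is not stated, and the main fit used no replicate block. Correlations of replicate differences across genes were −0.32 for Cnot3 RIP and IgG RIP, 0.34 for Cnot3 RIP and Input and −0.33 for IgG RIP and Input. Members and lists were chosen with earlier results of these data known. Genes named with values were, per cluster, the 3 of highest mean, the C types, the 3 of smallest p and the most extreme fold changes per comparison, and up to 4 of smallest p per list. Pcdhga4, Pcdhgb1, Taf7, Diap1 and Ctcf, and others listed by name only, were added for position, extremes or levels. Alternatives were library-size scaling, DESeq2 1.42.0 size factors, a pseudocount of 1, no filter, edgeR's quasi-likelihood test, a replicate block, the median member and leaving out each library.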

Additional observations from a re-analysis of the deposited data

How the results depend on the processing

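Signs of the gamma and beta sums and of the gamma to beta ratio were the same in every alternative run. The number of gamma members lower in Cnot3 RIP than in IgG RIP, 13, was 0 with no filter on low values, where 1 of 18620 tested genes was lower. The number higher in Cnot3 RIP than in the Input, 11, was 22 with scaling by library size only, 7 with a pseudocount of 1 and 3 with no filter. With scaling by library size only, 7 and 6 beta members were higher in Cnot3 RIP and IgG RIP than in the Input. The gamma sum against IgG RIP was −1.80 with no filter (limma adjusted p = 0.0806). For Cnot3 RIP against Input it was 2.33 with scaling by library size only (adjusted p = 4.01e-04) and 1.52 as the median member (0.0281). The beta sum was 1.45 and 1.64 over Input in Cnot3 RIP and IgG RIP with scaling by library size only (0.00489 and 0.00710), and the beta median member did not pass the filter. The gamma to beta log2 difference between Cnot3 RIP and Input was 1.36 with median members. In the related lists, 1 higher and 2 lower genes against IgG RIP became 3 and 1 with scaling by library size only and 0 and 0 with no filter. The 4 higher and 3 lower genes for Cnot3 RIP against Input became 90 and 0 with scaling by library size only, where 59.6% of all genes were higher. The 10 and 1 for IgG RIP against Input became 63 and 0, where 33.7% of all genes were higher. Other causes of these moves were not tested.

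Whether libraries of the same replicate number belong together is not stated. With the replicate number as a block, the gamma sum for Cnot3 RIP against Input was 1.25 (adjusted p = 0.0467), 19 gamma members were lower against IgG RIP, 14 higher in Cnot3 RIP than in the Input and 20 in IgG RIP than in the Input. In the lists the block gave 2 higher and 6 lower genes against IgG RIP, 7 higher for Cnot3 RIP against Input and 0 lower for IgG RIP against Input. With the block, 292 of 13010 genes were higher and 93 lower against IgG RIP, beside 200 and 36 in the main fit. Above Input it called 643 genes in Cnot3 RIP and 248 in IgG RIP, beside 762 and 336. The crossed pairing of the 4 RIP libraries, chosen after seeing the data, gave 20 gamma members lower, where 548 of 13010 genes were lower.

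Leaving out each library in turn, gamma members lower against IgG RIP ranged from 0 to 18, higher in Cnot3 RIP than in the Input from 0 to 12 and higher in IgG RIP than in the Input from 10 to 21, and beta members called were 0 in all 3 comparisons. The gamma sum ranged from −2.32 to −1.33, 1.08 to 1.38 and 2.53 to 3.57 in the same order, and for Cnot3 RIP against Input it passed without IgG RIP replicate 1 or 2 (adjusted p of 0.0303 and 0.0266). The beta sum ranged from −0.76 to −0.24, 0.13 to 0.65 and 0.71 to 1.05, and the gamma to beta log2 difference from −1.93 to −0.66, 0.72 to 1.001 and 1.52 to 2.79. List genes higher and lower ranged from 0 to 5 and 0 to 7 against IgG RIP, 0 to 8 and 0 to 5 for Cnot3 RIP against Input, and 1 to 10 and 0 to 2 for IgG RIP against Input. The number called among all tested genes also moved between these fits. Without an IgG RIP or Input library, fewer were called in each comparison than in the main fit. Without Cnot3 RIP replicate 1, more were called in each. Depth limits the alpha cluster, at 32 reads in all, and the 13 beta genes below the filter.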
